A study of Mus musculus with 24 samples.

Results

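The 8 arrays of the embryonic mouse diaphragm at E16.5 fell into a pair of sets of 4, the arrays titled replicates 1 to 4 and those titled replicates 5 to 8, and the tissue content of these sets is described here gene by gene. They are 8 of the 24 arrays of the series. The division was chosen on the measured array values, all genes together, and the labels give no reason for it. The gap between the sets is therefore reported as a description without a test. Genes on chromosomes X and Y were left out. The labels do not give the sex of the embryos, and its part in the division was not tested.

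All embryos were of the strain C57BL/6J. Tissue was cut by laser from 10 µm frozen sections at the level of the mid thorax, and its RNA was amplified and hybridised to Affymetrix Mouse Gene 1.0 ST arrays, 1 colour and 1 sample per array. The other 16 arrays hold the pleuroperitoneal folds, the paired embryonic tissue from which the diaphragm grows, with 8 arrays at E11.5 and 8 at E12.5, both cut from transverse sections. The E16.5 tissue was the primordial diaphragm and was cut from sagittal sections, so that stage and plane of section cannot be told apart in any comparison across stages. Both E16.5 sets carry the same stage, strain, plane of section and protocol in their labels, and no group was treated or carried an altered allele. The labels do not say whether replicates came from separate embryos or litters, so spreads and p-values cover only the variation between these samples, which may be technical.

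The diaphragm is a thin sheet of skeletal muscle with a central tendon, lying between lung and liver and covered by mesothelium on both faces. Its muscle precursors migrate into the folds, divide, fuse into fibres and then exchange embryonic isoforms of the contractile proteins for adult ones, while calcium handling proteins, enzymes of energy supply and a capillary bed are added. Early embryonic blood carries red cells of the yolk sac, which are loaded with embryonic globins, and blood from the fetal liver replaces them later.

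Values are the authors' deposited log2 RMA intensities, on which a step of 1 is a 2-fold change, and each gene is represented by 1 probe set. Over all 19351 genes, those on X and Y included, the median on the 8 E16.5 arrays lay between 7.49 and 7.57 and the lower quartile between 6.50 and 6.60. Across the 18573 autosomal genes, the median correlation was 0.978 over the 6 pairs of arrays within replicates 1 to 4. It was 0.979 over the 6 pairs within replicates 5 to 8 and 0.970 over the 16 pairs that join the sets. Single pairs that join the sets ranged from 0.961 to 0.979. Those are correlations across genes, which are not independent, and the between-set range reached the within-set medians. The median autosomal gene differed by 0.01 between the sets.

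A gene was called apart when every array of one set lay above every array of the other and the means differed by 1 or more on the log2 scale. Of the 18573 genes, 117 were apart with replicates 1 to 4 higher (0.630%) and 41 with replicates 1 to 4 lower (0.221%). Over all genes, 9746 means were higher on replicates 1 to 4 and 8827 lower. Without a minimum difference, 1218 genes (6.56%) did not overlap with replicates 1 to 4 higher and 928 (5.0%) with replicates 1 to 4 lower. They are the background for the counts of genes without overlap given below. These shares follow from the values that chose the division and carry no test. The lower count was 65 without replicate 1, 66 without replicate 3 and 80 without replicate 7. It was 40 to 55 with any other single array left out. Fewer arrays make the rule of no overlap easier to meet. Of the 41 genes, 39 stayed apart without replicate 1, 37 without replicate 3 and 39 without replicate 7. At the edge of the call, Acacb and Hk2 were inside with differences of 1.0 each, while Adgrf5 and Uqcrc1 lay just below 1.0 and outside. Adssl1 at 1.53 and Sftpc at 1.52 were outside because their arrays overlapped. On the lower side, Kcnj13 and Zgrf1 at -1.01 were inside, and Mad2l1 at -0.99 and Brip1 at -0.98 were outside. These edge genes are given as the ones nearest the limits.

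Tissue composition was followed with 34 lists of marker genes, of which 711 entries (698 genes) had an autosomal probe set. Means of the lists for fast contraction, sarcomere scaffold, energy supply, endothelium and basement membrane lay wholly higher on replicates 1 to 4, the slow contractile list did so by a smaller step, and the embryonic contractile and neuromuscular junction lists overlapped. Means of the immediate early, heat shock and hypoxia lists also lay wholly higher on replicates 1 to 4, with small median differences of 0.18, 0.06 and 0.08. Wholly higher means on replicates 1 to 4 were also found for the coupling, progenitor, mitochondrial regulator, capillary, pericyte, ubiquitin ligase and adipocyte lists. Means of the dividing cell and cytosolic ribosome lists lay wholly higher on replicates 5 to 8. Tendon and fibrous matrix lists overlapped between the sets. Skeletal muscle was present as labelled on every E16.5 array, where the mean of the fast contractile list was 10.88 or more. Of the 158 genes apart, 43 were in a list, 34 of them higher on replicates 1 to 4 and 9 lower. In bulk tissue, fewer cells of a type and less RNA per cell cannot be told apart.

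**Figure D1:**
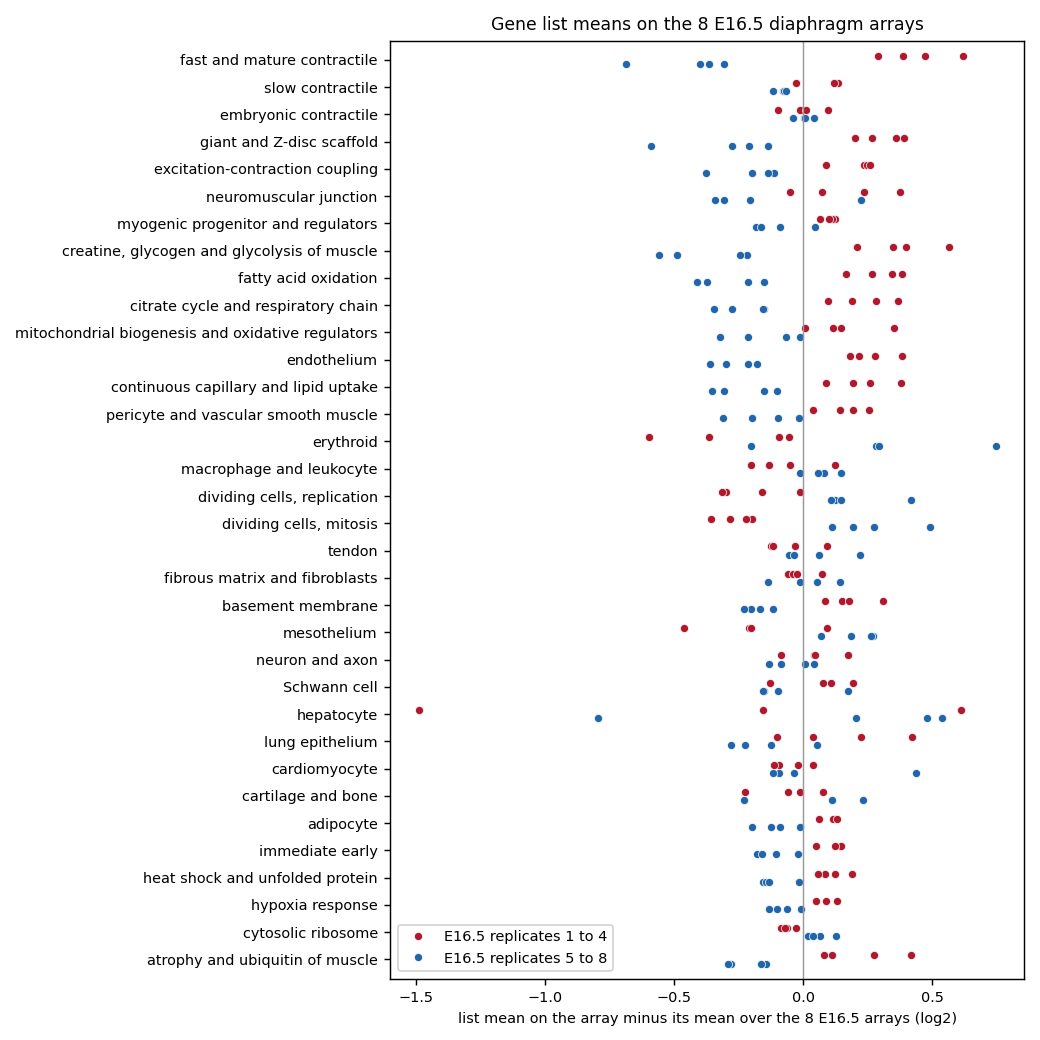
Mean log2 RMA value over the genes of each of the 34 lists on each E16.5 array, drawn as the distance from that list's mean over the 8 arrays (horizontal axis, log2). Red points are replicates 1 to 4 and blue points replicates 5 to 8; the fast contractile, energy, endothelium and basement membrane lists separate with red to the right, the 2 dividing cell lists with blue to the right, and the hepatocyte list has the widest spread within both sets.

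The contractile apparatus of fast fibres stood higher on replicates 1 to 4. The mean of the 20 genes of the fast and mature contractile list was 11.86 to 12.19 on replicates 1 to 4 and 10.88 to 11.26 on replicates 5 to 8. The median difference over the list was 0.67, against 0.01 over all genes. Of the 20 genes, 17 did not overlap with replicates 1 to 4 higher (6.56% of all genes), none did so in the other direction, and 7 were apart (0.630% of all genes).

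Mybpc2, the myosin-binding protein C of fast fibres, read 11.42, 11.67, 11.11 and 11.73 on replicates 1 to 4 and 9.42, 9.21, 9.22 and 7.95 on replicates 5 to 8. All 4 arrays of the first set lay above all 4 of the second, and replicate 8 was the lowest of the 8. The means were 11.48 ± 0.28 and 8.95 ± 0.67 (SD, n = 4 each), a difference of 2.53 ± 0.36 (SE). Differences between the sets are given throughout as replicates 1 to 4 minus replicates 5 to 8, with their SE. Pvalb, the calcium buffer parvalbumin of fast fibres, read 9.87, 10.05, 10.03 and 10.53 on replicates 1 to 4 and 7.55, 7.89, 7.93 and 7.01 on replicates 5 to 8, with replicate 8 again lowest. Its difference was 2.53 ± 0.26. Myh1 encodes the fast myosin heavy chain of type IIx fibres. It read 10.16, 10.09, 9.67 and 10.60 on replicates 1 to 4 and 8.67, 8.01, 8.02 and 8.13 on replicates 5 to 8, a difference of 1.92 ± 0.25, and the first set was again wholly above the second. Actn3, the alpha-actinin of the fast-fibre Z disc, read 11.98, 12.21, 11.52 and 12.36 on replicates 1 to 4 and 10.51, 10.33, 10.24 and 9.54 on replicates 5 to 8 and differed by 1.86 ± 0.28.

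Among the other adult fast myosins the pattern was uneven. Myh2, the type IIa heavy chain, read 8.86, 8.60, 9.14 and 9.18 on replicates 1 to 4 and 7.85, 7.64, 7.79 and 7.66 on replicates 5 to 8, and its difference was 1.21 ± 0.14 without overlap. Myh4 encodes the type IIb heavy chain. It read 8.95, 9.34, 9.60 and 10.13 on replicates 1 to 4 and 9.45, 9.60, 9.47 and 9.73 on replicates 5 to 8. The Myh4 arrays overlapped and the difference was -0.06 ± 0.26, so this gene did not share the direction of its neighbours Myh1 and Myh2. The myosin heavy chain genes are close copies of one another, and signal shared between their probe sets was not tested. Mylk2, the myosin light chain kinase of skeletal muscle, and Atp2a1, the calcium pump of the fast-fibre sarcoplasmic reticulum, completed the 7 genes apart with differences of 1.14 ± 0.25 and 1.05 ± 0.13.

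Slow isoforms showed a smaller step than the fast ones, and embryonic isoforms overlapped as a list. The mean of the 16 slow contractile genes was 11.27 to 11.44 on replicates 1 to 4 and 11.18 to 11.24 on replicates 5 to 8, and the median difference was 0.10, with 11 genes higher and 5 lower on replicates 1 to 4 and none apart. Its 3 genes without overlap were Myh7, Ankrd2 and Myoz2, all higher on replicates 1 to 4, as were 6.56% of all genes. Myh7, the slow myosin heavy chain, read 11.04, 11.24, 10.80 and 11.09 on replicates 1 to 4 and 10.73, 10.64, 10.39 and 10.68 on replicates 5 to 8 and differed by 0.43 ± 0.12. Myh7b, another slow-type heavy chain, differed by -0.20 ± 0.10, and Myl2, the slow regulatory light chain, by 0.00 ± 0.04, both with overlap.

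The 10 genes of the embryonic contractile list had a median difference of -0.12, and their mean ran from 11.33 to 11.53 on replicates 1 to 4 and from 11.39 to 11.47 on replicates 5 to 8. Myh3, the embryonic myosin heavy chain, had means of 12.56 ± 0.12 and 12.67 ± 0.10 (SD, n = 4 each). Its arrays overlapped and the difference was -0.11 ± 0.08. Myl4, the embryonic light chain, read 13.05, 13.10, 13.02 and 13.10 on replicates 5 to 8 against 12.95, 12.73, 12.67 and 12.83 on replicates 1 to 4, and every array of replicates 5 to 8 was the higher (difference -0.27 ± 0.07). Actc1, the actin of embryonic and cardiac muscle, differed by only 0.06 ± 0.03, yet without overlap and with replicates 1 to 4 higher. Des and Ncam1 also lay higher on replicates 1 to 4 without overlap (6.56% of all genes). Tnnt2, the embryonic and cardiac troponin T, lay lower (5.0% of all genes).

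**Figure D2:**
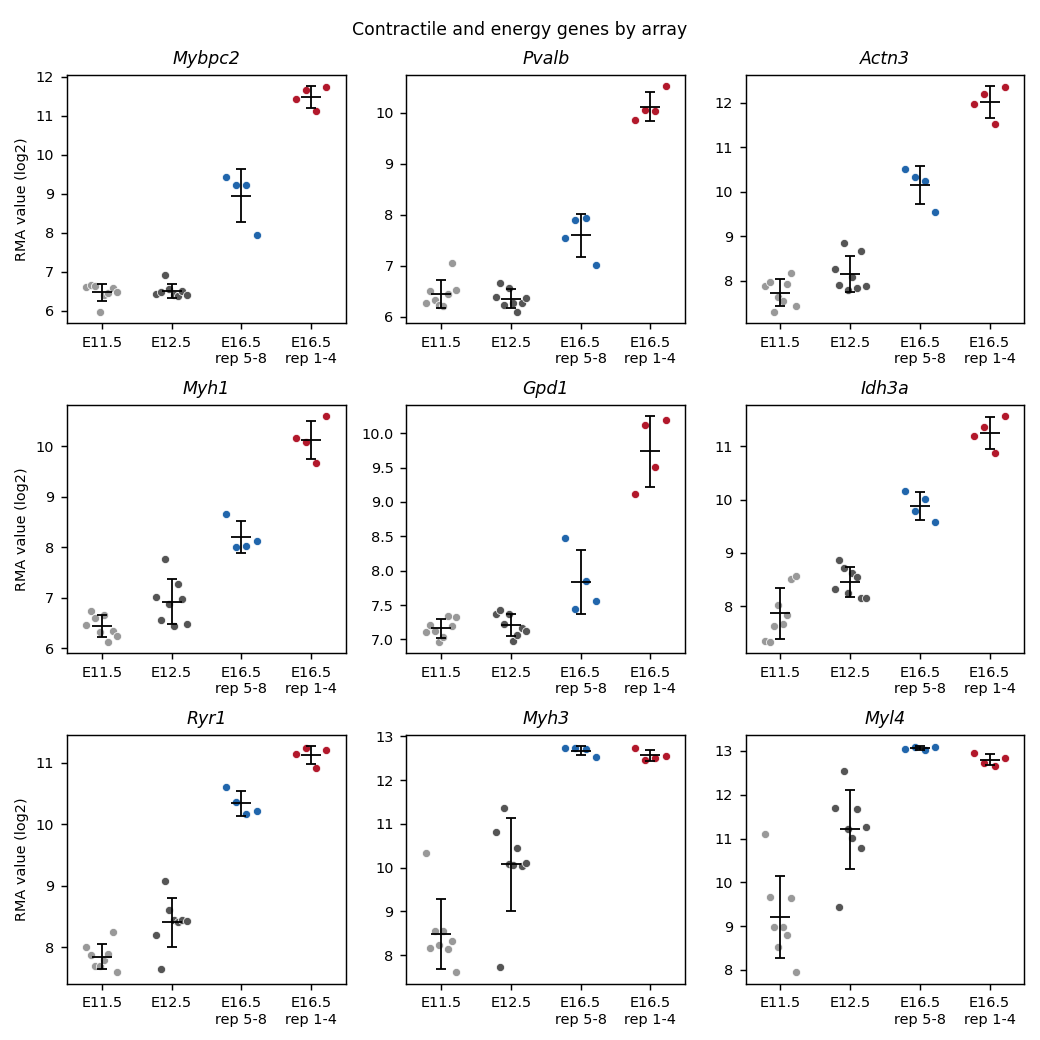
Log2 RMA values (vertical axes, own scale per gene) of 9 muscle genes on every array, for E11.5, E12.5, E16.5 replicates 5 to 8 (blue) and E16.5 replicates 1 to 4 (red); each point is an array, and black bars give the mean ± SD. Mybpc2, Pvalb, Actn3, Myh1, Gpd1, Idh3a and Ryr1 step up from the blue to the red arrays without overlap, Myh3 overlaps, and Myl4 is lower on the red arrays.

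The scaffold of the sarcomere was higher on replicates 1 to 4. Of 18 genes for giant and Z-disc proteins, 14 did not overlap with replicates 1 to 4 higher (6.56% of all genes), and the list mean was 10.99 to 11.18 on replicates 1 to 4 and 10.20 to 10.66 on replicates 5 to 8. Xirp2, a xin-repeat protein of the muscle cell junctions, read 10.36, 10.92, 10.58 and 10.83 on replicates 1 to 4 and 9.90, 9.77, 8.90 and 8.13 on replicates 5 to 8, and replicates 7 and 8 were the lowest. Its difference was 1.5 ± 0.43. Tcap, which caps titin at the Z disc, read 10.76, 10.79, 10.54 and 10.84 on replicates 1 to 4 and 9.78, 9.96, 9.58 and 8.52 on replicates 5 to 8, with replicate 8 again lowest, and differed by 1.27 ± 0.33. Ttn and Neb, the giant proteins titin and nebulin, differed by 0.23 ± 0.05 and 0.27 ± 0.09, and Actn2, the Z-disc alpha-actinin of all fibres, by 0.39 ± 0.08.

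The machinery that couples excitation to contraction was higher on replicates 1 to 4 in all 19 measured genes, 10 of them without overlap (6.56% of all genes) and none apart. Cacna1s, the voltage sensor of the transverse tubule, differed by 0.85 ± 0.17, and Ryr1, the calcium release channel of skeletal muscle, by 0.79 ± 0.12. Ryr3, a release channel of immature muscle, differed by 0.10 ± 0.07. At the neuromuscular junction the list means overlapped (8.61 to 9.04 and 8.32 to 8.89), and the acetylcholine receptor subunits Chrna1, Chrnb1 and Chrnd differed by 0.16 ± 0.42, 0.28 ± 0.11 and 0.19 ± 0.33. Lrp4, the agrin receptor, was the 1 gene of the 14 without overlap, with replicates 1 to 4 higher (6.56% of all genes).

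Muscle precursor and regulator genes showed a small step, with list means wholly higher on replicates 1 to 4 and a median difference of 0.18. Pax3 and Pax7, transcription factors of precursor cells, differed by 0.09 ± 0.16 and -0.07 ± 0.10, and Myf5, a determination factor, by 0.21 ± 0.23. Of the 23 genes in the list of progenitors and regulators, Dag1, Mef2d, Hey1 and Mef2c did not overlap, all higher on replicates 1 to 4 (6.56% of all genes). The list mean was 8.88 to 8.93 on replicates 1 to 4 and 8.63 to 8.86 on replicates 5 to 8. Muscle ubiquitin ligases and kelch proteins lay higher on replicates 1 to 4 in 14 of 15 genes, and Asb15, a subunit of a ubiquitin ligase, was apart at 1.16 ± 0.26. The other 4 without overlap were Asb2, Fbxo40, Klhl31 and Klhl40, all higher on replicates 1 to 4 (6.56% of all genes). Fbxo32, Trim54 and Trim63, further muscle ligases, differed by 0.33 ± 0.34, 0.81 ± 0.26 and 0.47 ± 0.25.

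Genes of energy supply were higher on replicates 1 to 4. In the creatine, glycogen and glycolysis list, all 21 genes had a higher mean on replicates 1 to 4, 16 did not overlap (6.56% of all genes) and 6 were apart (0.630% of all genes). The list mean was 10.90 to 11.26 on replicates 1 to 4 and 10.13 to 10.47 on replicates 5 to 8, and the median difference of 0.79 was the highest of the 34 lists. Gpd1, the cytosolic glycerol-3-phosphate dehydrogenase, read 9.11, 10.12, 9.52 and 10.20 on replicates 1 to 4 and 8.48, 7.45, 7.85 and 7.55 on replicates 5 to 8. The first set was wholly above the second, and the difference was 1.90 ± 0.35. Ckmt2, the mitochondrial creatine kinase of striated muscle, read 11.57, 11.38, 11.34 and 11.69 on replicates 1 to 4 and 10.48, 9.87, 10.62 and 9.79 on replicates 5 to 8 and differed by 1.30 ± 0.23. Pygm, the muscle glycogen phosphorylase, differed by 1.07 ± 0.19, and Slc2a4, the insulin-responsive glucose transporter, by 1.04 ± 0.30. The remaining genes apart were Phkg1, a subunit of phosphorylase kinase, at 1.02 ± 0.35 and Pfkm, the muscle phosphofructokinase, at 1.01 ± 0.21. Ckm and Ak1, the muscle creatine and adenylate kinases, differed by 0.80 ± 0.13 and 0.96 ± 0.27.

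Fatty acid oxidation followed, with 21 of 22 genes higher on replicates 1 to 4 and 13 without overlap (6.56% of all genes). Pdk2, a kinase that restrains entry of pyruvate into the citrate cycle, read 10.49, 10.47, 10.05 and 10.87 on replicates 1 to 4 and 9.19, 8.70, 9.04 and 9.13 on replicates 5 to 8, wholly higher on the first set. It differed by 1.46 ± 0.20. Acadm, the medium-chain acyl-CoA dehydrogenase, and Pdk4, a relative of Pdk2, were apart at 1.12 ± 0.15 and 1.04 ± 0.25. Cpt2, Slc25a20 and Acadl, which carry long-chain fatty acids into the mitochondrion and start their breakdown, differed by 0.76 ± 0.10, 0.83 ± 0.14 and 0.91 ± 0.25.

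All 41 genes for the citrate cycle and respiratory chain had higher means on replicates 1 to 4, and 32 did not overlap (6.56% of all genes), but the steps were smaller, with a median of 0.37. Idh3a, a subunit of the citrate cycle enzyme isocitrate dehydrogenase, read 11.19, 11.35, 10.86 and 11.56 on replicates 1 to 4 and 10.16, 9.78, 10.01 and 9.57 on replicates 5 to 8. Its sets stood clear of each other by 1.36 ± 0.19. Cox7a1, the muscle isoform of a cytochrome oxidase subunit, had means of 13.02 ± 0.12 and 11.95 ± 0.24 (SD, n = 4 each) and differed by 1.07 ± 0.14. Idh3b and Cs, citrate cycle enzymes of all tissues, differed by 0.35 ± 0.07 and 0.73 ± 0.09.

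Among the regulators of mitochondrial genes the steps were small except in Ppara, a nuclear receptor that acts on fatty acid oxidation genes. Ppara read 7.90, 7.67, 7.5 and 8.31 on replicates 1 to 4 and 6.84, 6.58, 6.73 and 6.67 on replicates 5 to 8, a difference of 1.14 ± 0.18. Mfn2 and Ppargc1a were the other regulators without overlap, both higher on replicates 1 to 4 (6.56% of all genes). Ppargc1a differed by 0.40 ± 0.12, Ppargc1b by 0.37 ± 0.21 and Esrra by 0.19 ± 0.10. Plin4 and Pnpla2, a lipid droplet coat protein and a triglyceride lipase, stood in the adipocyte list and were apart at 1.24 ± 0.19 and 1.04 ± 0.11. The defining fat cell genes Adipoq, Ucp1 and Lep lay below the lower quartile on all 8 arrays, and Plin1 differed by 0.02 ± 0.09.

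**Figure D3:**
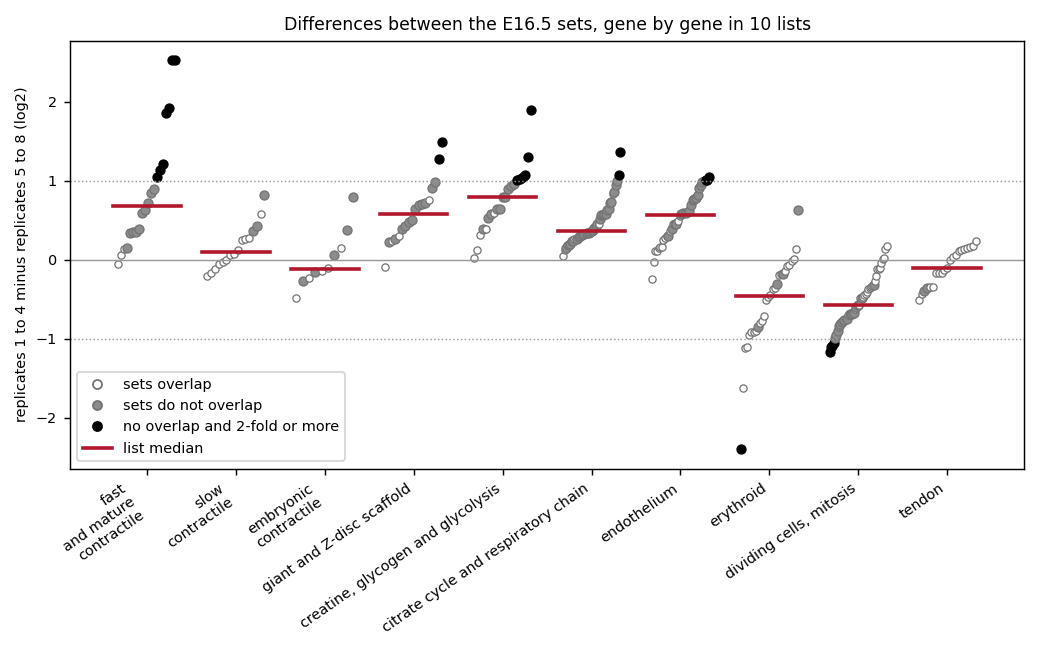
Difference between the set means (replicates 1 to 4 minus 5 to 8, vertical axis, log2 RMA) for every gene of 10 lists, in order of size within each list; open points overlap between the sets, grey points do not, black points also differ by 1 or more, and red bars are list medians. The energy and fast contractile lists lie almost wholly above 0, mitosis mostly below it, and slow, embryonic and tendon genes lie on both sides.

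The promoters of a fast myosin gene and of a glycogen enzyme gene are shown as examples of the genes apart in the muscle and energy lists. The window of Myh1 is chr11:67199852-67200151 (plus strand) and that of Pygm is chr19:6384158-6384457 (plus strand), in GRCm38.p6, both 250 bases before to 50 after the RefSeq transcription start. Sequences are from RefSeq. Capitals mark matches on either strand to 5 motifs: CAGCTG (an E-box of the kind bound by the muscle determination factors), the core of MEF2 sites (CTA and TAG with any 4 bases between), CCAAT (bound by NF-Y), TTTGAA (described with the dividing cell genes) and TATAAA (the TATA box).
Myh1: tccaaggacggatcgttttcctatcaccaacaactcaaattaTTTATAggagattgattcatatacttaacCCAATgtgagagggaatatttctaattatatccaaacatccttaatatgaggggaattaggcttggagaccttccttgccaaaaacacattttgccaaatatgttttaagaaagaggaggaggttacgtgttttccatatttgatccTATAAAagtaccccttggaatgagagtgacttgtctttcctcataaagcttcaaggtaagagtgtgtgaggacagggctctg
Pygm: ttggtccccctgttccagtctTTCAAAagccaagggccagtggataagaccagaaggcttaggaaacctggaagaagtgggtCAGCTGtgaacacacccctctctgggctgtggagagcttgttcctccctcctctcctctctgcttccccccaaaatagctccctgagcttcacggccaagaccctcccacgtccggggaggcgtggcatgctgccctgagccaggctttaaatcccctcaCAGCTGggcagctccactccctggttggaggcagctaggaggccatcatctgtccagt
Myh1 held TATAAA at -32 and -208 and CCAAT at -179, counting the first base of each match from the start site. Pygm held CAGCTG at -8 and -168 and TTTGAA at -229. CAGCTG was found in 16.7% of the 126 windows of genes apart and higher on replicates 1 to 4, against 16.3% of all 31396 windows. The MEF2 core was in 4.76% against 3.73%, and TATAAA in 12.7% against 13.6%. These shares lay close to those of all windows. A match describes letters only.

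Vessel genes were higher on replicates 1 to 4. Of 36 endothelial genes, 34 had the higher mean there and 20 did not overlap (6.56% of all genes), and the list mean was 8.62 to 8.82 on replicates 1 to 4 and 8.07 to 8.26 on replicates 5 to 8. The median difference was 0.56. Cdh5, the cadherin of endothelial junctions, read 11.01, 11.16, 11.06 and 11.42 on replicates 1 to 4 and 10.18, 9.82, 10.32 and 10.28 on replicates 5 to 8. All of replicates 1 to 4 were above all of replicates 5 to 8, by 1.01 ± 0.15. Ptprb, the phosphatase that acts on that cadherin, read 9.11, 9.30, 8.90 and 9.25 on replicates 1 to 4 and 8.06, 7.87, 8.51 and 7.91 on replicates 5 to 8, a difference of 1.05 ± 0.17. Eng, a co-receptor for TGF-beta ligands on endothelium, read 8.42, 8.96, 8.21 and 8.96 on replicates 1 to 4 and 7.59, 7.76, 7.56 and 7.62 on replicates 5 to 8 and differed by 1.01 ± 0.20. Pecam1, a junction protein, and Kdr, the main VEGF receptor, differed by 0.76 ± 0.10 and 0.58 ± 0.19, both without overlap.

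In the list for continuous capillaries and lipid uptake, Aqp1, a water channel, read 9.12, 9.53, 9.80 and 9.82 on replicates 1 to 4 and 7.97, 8.26, 8.55 and 8.07 on replicates 5 to 8 and was apart at 1.36 ± 0.21. Gpihbp1, which holds lipoprotein lipase on capillaries, differed by 0.96 ± 0.35, and the fatty acid carriers Cd36 and Fabp4 by 0.36 ± 0.14 and 0.36 ± 0.04. Mural cells gave fewer steps. Rgs5, a pericyte marker, read 9.50, 9.85, 9.28 and 10.01 on replicates 1 to 4 and 9.09, 7.86, 8.46 and 7.33 on replicates 5 to 8, with replicate 5 close to the first set and replicate 8 lowest, and it was apart at 1.47 ± 0.42. Acta2, the actin of smooth muscle, lay lower on replicates 1 to 4 without overlap, at -0.20 ± 0.04 (5.0% of all genes). Myh11 and Tagln, further smooth muscle genes, differed by 0.08 ± 0.09 and 0.03 ± 0.20. Basement membrane genes were higher on replicates 1 to 4 in 13 of 14 cases, 7 without overlap (6.56% of all genes). Nid1, the nidogen that links laminin to collagen IV, read 10.19, 10.44, 9.95 and 10.44 on replicates 1 to 4 and 9.12, 8.83, 9.38 and 9.49 on replicates 5 to 8, a difference of 1.05 ± 0.19. The collagens Col15a1, Col4a1 and Col4a2 differed by 0.60 ± 0.16, 0.50 ± 0.12 and 0.36 ± 0.18.

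Embryonic globins ran the other way. Hbb-y, the beta-like globin of primitive red cells, read 9.11, 10.68, 11.16 and 11.21 on replicates 5 to 8 against 8.80, 7.85, 8.09 and 7.81 on replicates 1 to 4. Every array of replicates 5 to 8 was above every array of the other set, though replicate 5 stood only just above replicate 1, and the difference was -2.40 ± 0.54. Hba-x, the embryonic alpha-like globin, read 8.23, 8.32, 8.73 and 8.68 on replicates 5 to 8 against 8.22, 7.43, 7.45 and 7.47 on replicates 1 to 4; replicates 1 and 5 were nearly level, and the difference was -0.85 ± 0.23. Hbb-bh1 and Hbb-bh2, further beta-like genes of the locus, differed by -0.51 ± 0.38 and -0.02 ± 0.09. The globin genes are near-copies, so shared signal between their probe sets is uncertain. The adult globins were not matched to a probe set and were not analysed here.

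The rest of the red cell program did not separate. The erythroid list of 28 genes had 25 lower means on replicates 1 to 4 and a median difference of -0.46, but its mean ran from 7.73 to 8.28 on replicates 1 to 4 and from 8.13 to 9.08 on replicates 5 to 8, with overlap. Only Hbb-y was apart, Hba-x, Tfrc and Trim58 were lower without overlap, and Sptb, a spectrin also made in muscle, was higher. Over all genes, 5.0% were lower and 6.56% higher without overlap. The white cell list of 24 genes had overlapping means and a median difference of -0.10, with 8 higher and 16 lower means on replicates 1 to 4. Its single genes were uneven and ranged from -1.12 to 0.90. Csf1r, Cd68 and Cx3cr1, markers of macrophages, differed by -0.07 ± 0.17, -0.24 ± 0.26 and 0.09 ± 0.06. Ly86, a surface protein of leukocytes, was lower on replicates 1 to 4 at -1.09 ± 0.22. Pf4 and Cd163 were higher without overlap, a share of 8.33% of the list that was near the 6.56% of all genes. Cd52, a leukocyte surface gene outside the lists, read 8.12, 8.71, 7.82 and 8.60 on replicates 5 to 8 against 6.31, 6.12, 6.95 and 7.58 on replicates 1 to 4 and differed by -1.58 ± 0.39, with 2 of the 4 arrays of replicates 1 to 4 below their lower quartile.

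The window of Hbb-y is shown because this gene has the largest difference of the erythroid list. It spans chr7:103853158-103853457 on the minus strand of GRCm38.p6, is taken from RefSeq and is written in the direction of the gene.
Hbb-y: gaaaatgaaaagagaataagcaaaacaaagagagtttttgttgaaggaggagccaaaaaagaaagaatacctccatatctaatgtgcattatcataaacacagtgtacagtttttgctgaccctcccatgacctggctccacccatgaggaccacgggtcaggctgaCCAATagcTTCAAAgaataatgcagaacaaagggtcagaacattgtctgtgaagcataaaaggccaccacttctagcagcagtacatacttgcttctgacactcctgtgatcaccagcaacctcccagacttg
CCAAT was matched at -83 and TTTGAA at -75, and the other motifs were not matched in this window.

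**Figure D4:**
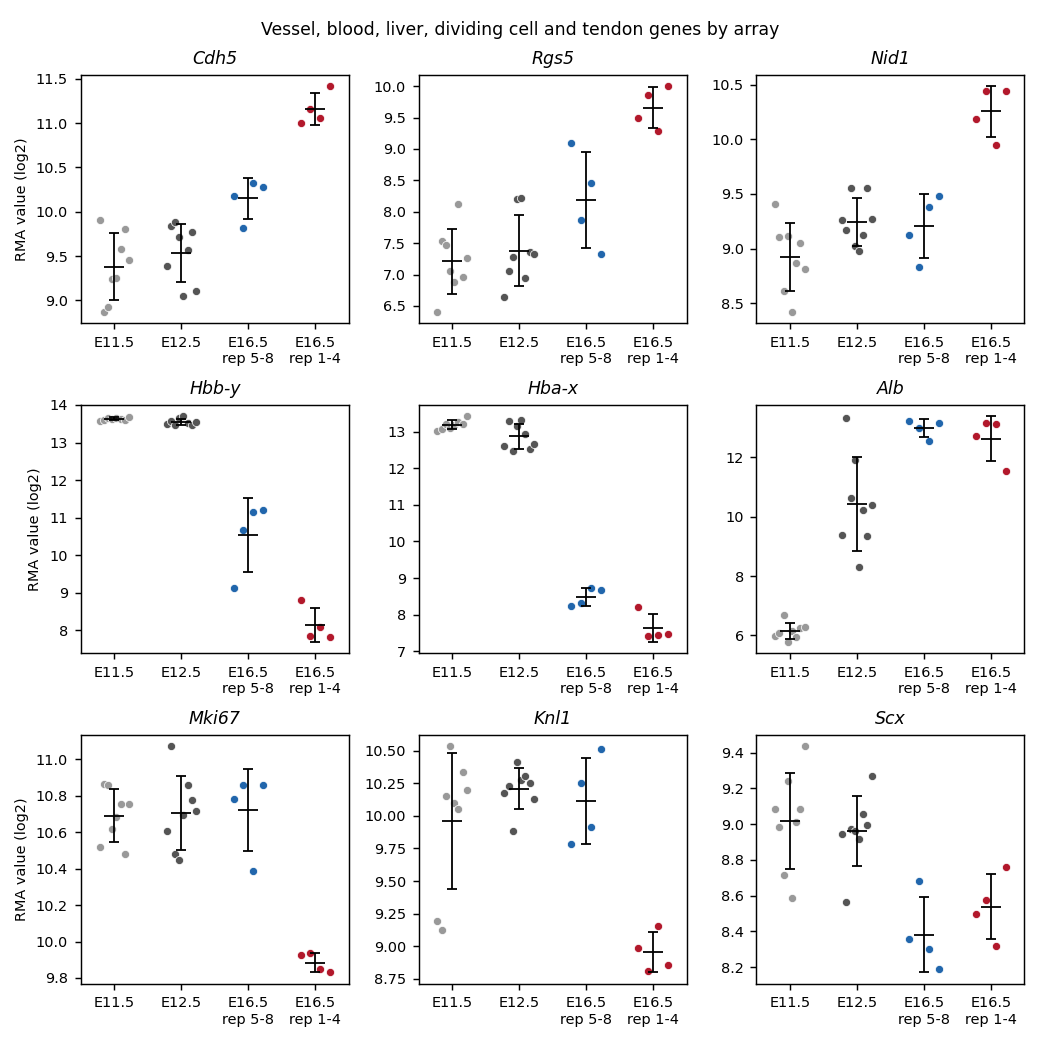
Log2 RMA values (vertical axes, own scale per gene) of 9 vessel, blood, liver, dividing cell and tendon genes on every array, for E11.5, E12.5, E16.5 replicates 5 to 8 (blue) and E16.5 replicates 1 to 4 (red); points are arrays and black bars the mean ± SD. Cdh5, Rgs5 and Nid1 are higher on the red arrays, Hbb-y, Hba-x, Mki67 and Knl1 are lower, the blue arrays of Mki67 and Knl1 lie near their E12.5 level, and Alb and Scx overlap.

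Genes of dividing cells were lower on replicates 1 to 4. Of 44 genes of mitosis, 40 had the lower mean there, 20 did not overlap (5.0% of all genes) and 4 were apart (0.221% of all genes). The list mean was 8.91 to 9.06 on replicates 1 to 4 and 9.38 to 9.75 on replicates 5 to 8, and the median difference was -0.57. Mki67, the nuclear protein of cycling cells, read 10.78, 10.86, 10.39 and 10.86 on replicates 5 to 8 against 9.92, 9.93, 9.85 and 9.83 on replicates 1 to 4, a difference of -0.84 ± 0.12 without overlap. Knl1, the scaffold of the kinetochore, read 9.78, 10.25, 9.92 and 10.52 on replicates 5 to 8 against 8.99, 8.81, 9.16 and 8.86 on replicates 1 to 4 and differed by -1.16 ± 0.18. Kif15, a kinesin of the mitotic spindle, read 9.32, 9.36, 9.24 and 9.58 on replicates 5 to 8 against 8.38, 8.10, 8.42 and 8.20 on replicates 1 to 4, a difference of -1.10 ± 0.11. Kif20b and Kif18a, further mitotic kinesins, were apart at -1.09 ± 0.11 and -1.06 ± 0.18. Top2a, the topoisomerase of dividing chromosomes, differed by -0.76 ± 0.05, and Ccna2, a cyclin of S and G2 phase, by -0.41 ± 0.15.

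Replication genes had 29 of 32 lower means on replicates 1 to 4 and a median difference of -0.37. Hells, a chromatin remodeller of proliferating cells, read 9.41, 9.83, 9.45 and 9.91 on replicates 5 to 8 against 8.41, 7.62, 8.88 and 8.18 on replicates 1 to 4, wholly lower on replicates 1 to 4. It differed by -1.38 ± 0.29. Rfc4, a subunit of the loader of the replication clamp, read 8.66, 8.16, 8.27 and 9.04 on replicates 5 to 8 against 7.91, 6.57, 7.10 and 7.73 on replicates 1 to 4, with replicate 2 lowest, and differed by -1.21 ± 0.37. The helicase subunits Mcm2, Mcm3 and Mcm4 were unequal, at -0.05 ± 0.18, -0.16 ± 0.15 and -0.91 ± 0.23. Ccnd1, a cyclin of G1 phase, was the only gene of this list without overlap in the other direction, at 0.50 ± 0.12 (6.56% of all genes). Outside the lists, Depdc1a, a mitotic gene, differed by -1.83 ± 0.63, and Ncapg2, a subunit of condensin II, by -1.28 ± 0.29. For Depdc1a, replicate 2 read 4.49, below its lower quartile of 6.52, and the rest of replicates 1 to 4 read between 6.6 and 7.0.

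The promoters of the 4 mitosis genes apart are shown because TTTGAA, the cell cycle homology region of many late cell cycle genes, was found in 32.4% of the 37 windows of genes lower on replicates 1 to 4, against 17.6% of all windows and 11.1% of the windows of genes higher there. All are on the plus strand of GRCm38.p6 and from RefSeq: chr2:119046869-119047168, chr9:122950831-122951130, chr19:34922108-34922407 and chr2:109280488-109280787.
Knl1: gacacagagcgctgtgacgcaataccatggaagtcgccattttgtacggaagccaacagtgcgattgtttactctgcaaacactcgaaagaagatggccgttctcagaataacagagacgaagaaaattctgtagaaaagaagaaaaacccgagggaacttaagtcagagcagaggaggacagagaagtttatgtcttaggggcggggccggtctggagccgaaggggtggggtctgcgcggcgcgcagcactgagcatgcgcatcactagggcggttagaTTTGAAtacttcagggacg
Kif15: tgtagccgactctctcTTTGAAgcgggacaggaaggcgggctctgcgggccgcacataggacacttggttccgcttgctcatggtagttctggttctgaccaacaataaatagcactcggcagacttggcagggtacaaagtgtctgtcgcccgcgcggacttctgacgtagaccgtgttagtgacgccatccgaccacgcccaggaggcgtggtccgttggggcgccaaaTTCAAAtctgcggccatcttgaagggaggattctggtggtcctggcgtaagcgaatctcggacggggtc
Kif20b: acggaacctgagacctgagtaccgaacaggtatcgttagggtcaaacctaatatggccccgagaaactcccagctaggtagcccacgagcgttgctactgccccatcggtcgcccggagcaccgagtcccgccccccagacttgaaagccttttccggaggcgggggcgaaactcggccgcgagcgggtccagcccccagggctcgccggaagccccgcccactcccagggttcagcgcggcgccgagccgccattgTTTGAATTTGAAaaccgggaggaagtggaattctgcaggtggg
Kif18a: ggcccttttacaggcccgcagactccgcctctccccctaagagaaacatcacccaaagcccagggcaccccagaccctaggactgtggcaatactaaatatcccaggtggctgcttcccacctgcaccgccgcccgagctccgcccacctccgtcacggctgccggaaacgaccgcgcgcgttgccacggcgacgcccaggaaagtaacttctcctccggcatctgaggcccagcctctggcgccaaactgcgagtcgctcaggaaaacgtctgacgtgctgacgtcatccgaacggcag
Knl1 held TTTGAA at 31, Kif15 at -19 and -234, and Kif20b at 7 and 13, while Kif18a held none of the 5 motifs. Matches of different motifs overlapped in 0 cases in the 7 windows printed. CCAAT was in 43.2% of the windows of the lower genes and 37.3% of all windows, and CAGCTG in 8.11% and 16.3%. The share with TTTGAA was chosen for mention after it was seen and carries no test.

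Tendon and connective tissue differed little. The tendon list of 21 genes had a median difference of -0.11, 9 higher and 12 lower means on replicates 1 to 4, and overlapping list means of 8.66 to 8.87 and 8.73 to 9.00. Scx, the transcription factor of tendon cells, read 8.50, 8.58, 8.32 and 8.76 on replicates 1 to 4 and 8.35, 8.68, 8.30 and 8.19 on replicates 5 to 8. The arrays overlapped and the difference was 0.16 ± 0.14. Mkx, a further tendon transcription factor, and Egr1 differed by -0.34 ± 0.16 and 0.15 ± 0.12. Dcn and Col11a1, a proteoglycan and a collagen chain, were the only 2 genes of the list without overlap, at -0.35 ± 0.13 and -0.40 ± 0.17. Of all genes, 5.0% were lower without overlap.

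The fibrous matrix list of 31 genes was split, with 15 higher and 16 lower means and a median of -0.01. Dlk1, Col6a3 and Sparc were higher on replicates 1 to 4 without overlap (6.56% of all genes), and Postn, Ogn, Lum, Col5a2 and Igf1 were lower (5.0% of all genes). Pdgfra, the receptor of connective tissue fibroblasts, differed by -0.08 ± 0.22, Osr1, a transcription factor of the same cells, by -0.26 ± 0.27, and Tcf4, a helix-loop-helix transcription factor, by -0.09 ± 0.12. In the mesothelium list 17 of 20 means were lower on replicates 1 to 4. Gpm6a, a membrane glycoprotein also known from neurons, read 9.44, 9.13, 10.50 and 10.42 on replicates 5 to 8 against 8.32, 7.29, 8.76 and 8.55 on replicates 1 to 4 and was apart at -1.64 ± 0.48. The mesothelial markers Upk1b, Upk3b and Msln differed by -0.85 ± 0.27, -0.46 ± 0.28 and -0.46 ± 0.16, and Upk1b and Gata6 were lower without overlap (5.0% of all genes).

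Markers of neighbouring organs varied within both sets. The hepatocyte list had no gene of 19 without overlap, beside 6.56% of all genes higher and 5.0% lower. Its mean was 8.88 to 10.98 on replicates 1 to 4 and 9.58 to 10.91 on replicates 5 to 8. Replicate 4 and replicate 7 were lowest of their sets. Alb, the plasma albumin gene, had means of 12.63 ± 0.76 and 12.98 ± 0.31 (SD, n = 4 each), and replicate 4 was lowest. Afp and Apoa1, further liver genes, differed by -0.45 ± 0.57 and -0.02 ± 0.60. Sftpc, the surfactant protein of lung epithelium, read 11.26, 11.77, 12.73 and 9.67 on replicates 1 to 4 and 11.97, 8.26, 8.0 and 11.10 on replicates 5 to 8, so that both sets held high and low arrays. Sftpb and Sftpa1 differed by 0.22 ± 0.14 and 0.23 ± 0.15. Muc1 and Sftpd were the lung genes without overlap, both higher on replicates 1 to 4 (11.1% of the list, 6.56% of all genes). In the cardiomyocyte list the mean of replicate 8 was 8.38 against 7.83 to 7.98 on the other 7 arrays, and Nppa, the atrial natriuretic peptide, read 7.33, 7.34, 7.29 and 7.02 on replicates 1 to 4 and 7.18, 7.15, 7.43 and 10.23 on replicates 5 to 8. Nppb and Myh6 differed by -0.10 ± 0.10 and -0.23 ± 0.19. The part of captured liver, lung and heart tissue in these values was not tested.

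Nerve, Schwann cell and cartilage lists overlapped between the sets. Nefl, Nefm and Tubb3, neuronal cytoskeleton genes, differed by 0.27 ± 0.30, 0.53 ± 0.51 and -0.67 ± 0.50. Sox10 and Mbp, a glial transcription factor and a myelin protein, differed by 0.19 ± 0.12 and -0.09 ± 0.07. Erbb3, the neuregulin receptor of Schwann cells, was lower on replicates 1 to 4 without overlap at -0.54 ± 0.13 (7.69% of its list, 5.0% of all genes). Sox9, Col2a1 and Col9a1, genes of cartilage, differed by 0.16 ± 0.13, -0.01 ± 0.03 and -0.07 ± 0.10.

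Lists of genes that answer to handling and stress had list means higher on replicates 1 to 4 without overlap. Median differences were 0.18 for immediate early, 0.06 for heat shock and 0.08 for hypoxia genes. Heat shock genes were split, with 11 higher and 9 lower means, and 5 higher and 4 lower without overlap (6.56% and 5.0% of all genes). Hypoxia genes had 16 higher and 6 lower means. The immediate early list mean was 8.08 to 8.18 on replicates 1 to 4 and 7.85 to 8.01 on replicates 5 to 8, that of heat shock 10.23 to 10.37 and 10.02 to 10.16, and that of hypoxia 8.81 to 8.89 and 8.63 to 8.75. In the immediate early list 24 of 26 means were higher on replicates 1 to 4. Only Ier3 and Ier5 did not overlap, a share of 7.69% that was near the 6.56% of all genes. Fos, Fosb and Junb, transcription factors of that response, differed by 0.29 ± 0.15, 0.10 ± 0.10 and 0.20 ± 0.06. Among chaperones the small heat shock proteins of muscle stood out: Hspb7 read 10.68, 10.59, 9.94 and 10.74 on replicates 1 to 4 and 8.93, 9.36, 8.92 and 8.35 on replicates 5 to 8, wholly higher on the first set, and differed by 1.60 ± 0.28. Hspb6 and Bag3, a relative and a co-chaperone, were apart at 1.41 ± 0.20 and 1.06 ± 0.16. The general heat shock genes Hspa1a and Dnajb1 differed by 0.26 ± 0.14 and -0.08 ± 0.43, and Hspb1 by 0.77 ± 0.15. Dnaja1, Hsp90aa1, Hsp90b1 and Pdia4, chaperones of all cells, were lower on replicates 1 to 4 without overlap.

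In the hypoxia list, Hk2, a hexokinase of muscle, was at 1.0 ± 0.09, while Slc2a1, Vegfa and Pdk1 differed by -0.24 ± 0.24, 0.34 ± 0.12 and 0.52 ± 0.24. Cytosolic ribosomal proteins were lower on replicates 1 to 4 in 16 of 19 genes, 9 without overlap (5.0% of all genes). Rpl4, Rpl5 and Rpl7 differed by -0.12 ± 0.04, -0.23 ± 0.03 and -0.28 ± 0.02. The part of handling and RNA quality in the gap was not tested.

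Several of the largest differences lay outside the lists. The largest of all was Rpl3l, a ribosomal protein made in striated muscle in place of its general relative. It read 10.07, 10.87, 10.12 and 10.85 on replicates 1 to 4 and 7.48, 7.69, 7.76 and 6.88 on replicates 5 to 8, and the lowest array of the first set was 2.31 above the highest of the second. The difference was 3.03 ± 0.30. Entpd1, an enzyme that breaks down extracellular ATP, read 8.71, 8.76, 9.26 and 9.75 on replicates 1 to 4 and 7.32, 6.39, 7.77 and 6.77 on replicates 5 to 8 and differed by 2.06 ± 0.39. Ndrg2 read 12.42, 12.00, 12.29 and 12.43 on replicates 1 to 4 and 11.34, 9.81, 10.12 and 9.89 on replicates 5 to 8, with replicate 5 between the rest of its set and the first set. Its difference was 2.0 ± 0.37.

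Further genes higher on replicates 1 to 4 included muscle and signalling genes. Smtnl1, a smoothelin-like protein, and Mypn, the Z-disc protein myopalladin, differed by 1.89 ± 0.52 and 1.64 ± 0.19. Car14, a carbonic anhydrase of the cell surface, read 9.76, 9.79, 9.44 and 10.30 on replicates 1 to 4 and 7.98, 8.18, 7.93 and 7.62 on replicates 5 to 8 and differed by 1.90 ± 0.21. Frzb, a secreted inhibitor of Wnt signals, differed by 1.88 ± 0.36, Art3 by 1.89 ± 0.35, Klhdc3 by 1.68 ± 0.17 and Riiad1 by 1.67 ± 0.48.

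Other named genes were lower on replicates 1 to 4. Zfp672, a zinc finger gene, read 10.32, 9.22, 8.48 and 9.23 on replicates 5 to 8 against 7.21, 6.45, 7.16 and 7.38 on replicates 1 to 4, a difference of -2.26 ± 0.43, which was -1.09 when its probe sets were averaged. Zfp882 and Zfp334 differed by -2.12 ± 0.35 and -1.35 ± 0.33. Zfp931 differed by -1.31 ± 0.39, and 3 of its 4 arrays in replicates 1 to 4 lay below their lower quartile, so that value is a lower bound on the size of the step. Emb, an adhesion protein, differed by -1.89 ± 0.57, with 2 of the 4 arrays of replicates 1 to 4 below their lower quartile. Further differences were those of Akip1 (-1.61 ± 0.53), Idi1, an enzyme of sterol synthesis (-1.29 ± 0.26), Spata24 (-1.22 ± 0.22) and Efemp1, a fibulin of the matrix (-1.21 ± 0.35). The olfactory receptor pseudogene Olfr1372-ps1, outside the naming rule, had a difference of -2.76 ± 0.56, with all 4 arrays of replicates 1 to 4 below their lower quartile.

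The sets were next each compared with the E12.5 folds, where stage and plane of section cannot be told apart. Both comparisons use the same 8 E12.5 arrays, so their values are given side by side and not as independent results. The sets were chosen on the E16.5 values, so the numbers called in each set are a description of it. By limma with Benjamini-Hochberg adjustment over 18573 genes, 2221 genes (12.0%) were higher and 2643 (14.2%) lower in replicates 1 to 4 than at E12.5. For replicates 5 to 8 the numbers were 1472 (7.93%) and 1945 (10.5%). The mean of replicates 5 to 8 lay between those of E12.5 and replicates 1 to 4 for 8249 genes (44.4%). That of replicates 1 to 4 lay between E12.5 and replicates 5 to 8 for 5633 (30.3%), and that of E12.5 between the sets for 4691 (25.3%).

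Most contractile genes rose from E12.5 in both sets. Over all genes, 12.0% rose and 14.2% fell in replicates 1 to 4, against 7.93% and 10.5% in replicates 5 to 8. All 20 fast contractile genes were higher than at E12.5 in replicates 1 to 4 and in replicates 5 to 8. In 19 of them replicates 5 to 8 lay in between (44.4% of all genes). Mybpc2 had a mean of 6.51 ± 0.18 (SD, n = 8) at E12.5. It was higher by 4.97 ± 0.19 in replicates 1 to 4 and by 2.44 ± 0.19 in replicates 5 to 8. Myh3 was higher by 2.48 ± 0.45 and 2.59 ± 0.45, which were nearly the same step. Of the 16 slow contractile genes, 14 and 15 rose, and 1 fell in both sets (Tpm3). Among the 23 progenitors and regulators, 8 rose and 1 fell in replicates 1 to 4 and 7 rose and 4 fell in replicates 5 to 8, and of the 14 junction genes 10 and 4 rose. For the creatine, glycogen and glycolysis list, 20 of 21 genes rose in replicates 1 to 4 and 15 in replicates 5 to 8. In the citrate cycle and respiratory chain, 41 of 41 and 38 of 41 rose. Replicates 5 to 8 lay between in all 41 (44.4% of all genes).

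Vessel genes can be set beside E12.5 in the same way. Of 36 endothelial genes, 29 rose in replicates 1 to 4 and none fell (12.0% and 14.2% of all genes). In replicates 5 to 8, 8 rose and 1 fell (7.93% and 10.5% of all genes). The differences of Cdh5 from E12.5 were 1.62 ± 0.19 in the former and 0.61 ± 0.19 in the latter, those of Eng 1.01 ± 0.15 and 0.00 ± 0.15, and those of Nid1 1.01 ± 0.16 and -0.04 ± 0.16. Whether the sets differ in these steps is the contrast that chose them and was not tested.

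Dividing cell genes fell from E12.5. In replicates 1 to 4, 43 of 44 mitosis genes fell (14.2% of all genes), and in replicates 5 to 8, 20 fell (10.5% of all genes). The differences of Knl1 from E12.5 were -1.26 ± 0.20 for replicates 1 to 4 and -0.09 ± 0.20 for replicates 5 to 8, and those of Mki67 were -0.82 ± 0.11 and 0.02 ± 0.11. Of 32 replication genes, 29 and 21 fell (14.2% and 10.5% of all genes). Hbb-y, at 13.46 to 13.71 (median 13.53) on the E12.5 arrays, fell in both sets, with changes of -5.41 ± 0.24 and -3.01 ± 0.24. Hba-x also fell in both, with changes of -5.23 ± 0.17 and -4.38 ± 0.17. Tendon genes gave nearly equal counts. They had 8 rises and 1 fall of 21 in replicates 1 to 4 (12.0% and 14.2% of all genes). In replicates 5 to 8 they had 7 rises and 1 fall (7.93% and 10.5% of all genes).

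The genes apart can be placed the same way, although their choice on the E16.5 values makes these counts a description. Of the 117 higher on replicates 1 to 4, 116 were above E12.5 in that set (12.0% of all genes), with a median change of 2.16. In replicates 5 to 8, 72 of the 117 were above E12.5 and 2 below (7.93% and 10.5% of all genes), with a median of 0.73. Replicates 5 to 8 lay between E12.5 and replicates 1 to 4 for 108 of the 117 (44.4% of all genes). Of the 41 lower on replicates 1 to 4, 28 were below E12.5 in that set (14.2% of all genes), with a median change of -1.06. In replicates 5 to 8, 8 of the 41 were above E12.5 and 6 below (7.93% and 10.5% of all genes), with a median of 0.21. The E12.5 mean lay between the sets for 22 of the 41 (25.3% of all genes).

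The step from E11.5 to E12.5 compares arrays outside the division. Its variance, however, came from the fit of all arrays, in which the sets were separate groups, so the calls are not independent of the division. Over all genes 70 rose (0.377%) and 14 fell (0.0754%), and none of the 158 genes apart was among them by limma at an adjusted p under 0.05. At an unadjusted p under 0.05, 17 of the 117 rose and 1 fell, and 4 of the 41 rose and 2 fell, against 1249 rises and 1534 falls over all genes. The total of 84 genes was 197 without E11.5 replicate 4 and 165 without E12.5 replicate 2, and it was between 32 and 49 without E11.5 replicate 7 or 8 or without E12.5 replicate 1, 3, 4, 6, 7 or 8. In the muscle lists the genes that rose early were Ttn, Neb, Actn2 and Myom1 among the 18 giant and Z-disc genes, Tnnt1, Tnnc1, Myoz2 and Csrp3 among the 16 slow contractile genes, Myl4, Actc1, Tnnt2 and Vim among the 10 embryonic contractile genes, Mylpf among the 20 fast ones, Myod1 and Mef2c among the 23 progenitors and regulators, Hrc in coupling and Musk at the junction. Of the energy lists, Mdh2 alone rose. The 84 genes became 9 when only the E11.5 and E12.5 arrays were fitted. All names here are from the fit of all arrays, and which of them are among the 9 is not given.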

How the data were processed

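Laser-captured mouse tissue was measured on 24 arrays, 8 per stage, and no array was left out. The authors deposited log2 RMA intensities for 24200 probe sets; the submitters' processing notes name Affymetrix Expression Console 1.1, RMA and R 2.9.2 without their roles. Background, scale and summarisation were thus set before deposit; whether all 24 arrays were normalized together is not given in the sources used here, and scaled values cannot show a change shared by all genes. No detection calls or scan batches were used here, the number of arrays limits the precision, and a value below an array's lower quartile was read as dim. Probe sets were named through the platform annotation (20760 with 1 gene, 1140 with several, 2300 with none), 20680 were matched by gene ID to RefSeq, and the probe set with the highest mean was used for the 804 genes with several. Of 19351 genes, 695 on X or Y and 83 without a chromosome were left out.

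The division, the members and the 34 lists were chosen with earlier results of these data known. For that reason the E16.5 sets were described by array values, means ± SD, differences ± SE and counts, without a test. Changes between stages were tested with limma 3.58.1 in R 4.3.3 as a linear model of all genes with moderated variances (4 coefficients, 24 arrays), with Benjamini-Hochberg adjustment and a threshold of 0.05; p-values are two-sided. The script was tested on simulated data. Tables and figures were made with Python 3.11.15 and pandas 2.3.3. Named genes were the 15 largest differences in each direction among genes apart, excluding small RNAs, receptors of smell and gene models without a proper symbol, up to 4 genes apart per list, the first 3 measured genes of each list, and members of counts of 5 or fewer. Mylk2, Atp2a1, Phkg1, Pfkm, Olfr1372-ps1, Ucp1, Lep, Tpm3 and the genes at the edge of the call were named after their values were seen. Promoter windows are the RefSeq table's, in GRCm38.p6. Alternatives were other scalings, a filter on dim genes, the mean over probe sets, other minimum differences, each array left out, a replicate block, a fit of only the arrays compared, and the trend and robust options of eBayes.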

Additional observations from a re-analysis of the deposited data

Results flagged for a closer look

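Among the 4 arrays of a set, 1 array stood away from the other 3 by more than the Dixon criterion allows in 29 of 510 groups examined, which covered the 34 list means and 221 genes in each set. Chance alone flags about 1 group in 20, so the number of cases is near what chance gives.

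Among the list means, replicate 3 was low in its set for slow contractile genes (11.27, others 11.42 to 11.44) and for excitation-contraction coupling (10.20, others 10.35 to 10.37). Replicate 8 was high for replication genes (9.19, others 8.88 to 8.92) and for cardiomyocyte genes (8.38, others 7.83 to 7.91). Replicate 7 was high for heat shock and unfolded protein genes (10.16, others 10.02 to 10.04).

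Within replicates 5 to 8, replicate 8 accounted for 8 of the gene cases. It was low for Mybpc2 at 7.95, Ankrd2 at 7.53, Hk2 at 8.06, Klhl40 at 9.46 and Sftpd at 6.50, and high for Kif20b at 9.73 and Tnnt2 at 13.22. Nppa was the last of these, high at 10.23 against 7.15 to 7.43 on the other 3 arrays. Replicate 5 was high for Tfrc at 11.60 and low for Col6a3 at 10.12, replicate 6 was low for Dlk1 at 9.98, and replicate 7 was low for Mki67 at 10.39.

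Within replicates 1 to 4, replicate 1 was high for Hba-x at 8.22 (others 7.43 to 7.47) and for Myod1 at 9.40. Replicate 2 was low for Depdc1a at 4.49 and high for Pdia4 at 9.66. Replicate 3 was low for Cd36 at 10.83, Col11a1 at 8.54 and Hspb6 at 10.27, and high for Fos at 7.45 and Tpm3 at 12.29. Replicate 4 was low for Pdgfra at 8.68, Mylk2 at 8.78 and Nppa at 7.02.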

How the results depend on the processing

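The counts of genes apart, 117 higher and 41 lower on replicates 1 to 4, were 422 and 226 with a minimum of 1.5-fold and 1218 and 928 with none. Leaving out each E16.5 array in turn gave 94 to 151 higher and 40 to 80 lower genes. Other scalings, the filter on dim genes, the mean over probe sets and keeping X and Y genes left 101 to 120 higher and 39 to 49 lower. With the 75th percentile scaling, 104 of the 117 and 41 of the 41 stayed apart. The median over all genes moved by less than 0.1 under every scaling. Of 792 values for 61 named genes apart, 747 stayed apart, 45 did not and 0 changed sign; 18 genes lost the call under at least 1 alternative. These were Pdk4, Slc2a4, Pygm, Hk2, Cox7a1, Ppara, Pnpla2, Tcap and Bag3 of muscle and energy supply, Cdh5, Eng, Ptprb and Nid1 of vessels and basement membrane, and Kif18a, Rfc4, Ly86, Efemp1 and Idi1 among the lower genes. These values stayed near the limit of 1, and the one farthest from it was -0.86 for Idi1 with its probe sets averaged. The endothelial median was 0.46 to 0.56 with single arrays left out. Medians of the fast contractile, erythroid, replication, mitosis and tendon lists moved by less than the spread between replicates.

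The 84 genes changed from E11.5 to E12.5 became 9 when only those arrays were fitted, 48 after quantile normalization and 32 to 197 with single arrays left out. Replicate numbers did not pair the samples: over 8 pairs of E11.5 and E12.5 arrays with the same number, deviations correlated between -0.290 and 0.053. With the replicate number as a block, 37 genes were called. Against E12.5, the 4864 genes changed in replicates 1 to 4 ranged from 4180 to 4898 and the 3417 in replicates 5 to 8 from 2690 to 3519 with single arrays left out, and the block gave 4150 and 2982. The signal of dim genes and the small number of arrays limit what can be seen, and a division chosen on the values gives no estimate of how often such a gap would recur.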
